A study of Mus musculus with 12 samples.

Results

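The 6 GATA factor genes of the mouse, Gata1 to Gata6, were examined as loci of open chromatin. A peak was counted as belonging to a locus if it shared at least 1 base with the gene body in the GENCODE M21 annotation of GRCm38 after that body had been extended by 20 kb on each side. By this rule 32 of the 91354 peaks in the BGI peak set and 36 of the 87027 peaks in the Illumina peak set were members. Of the 32 BGI peaks, 30 had an Illumina counterpart covering at least 50% of them, and 6 of the Illumina peaks had no BGI counterpart. The members were spread over 5 chromosomes, with Gata3 and Gata5 both on chromosome 2.

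Omni-ATAC-seq was used, in which the Tn5 transposase cuts and tags accessible DNA, so that reads pile up where chromatin is open. It was applied to mouse embryonic fibroblasts (MEFs), sorted as THY1+ cells, and to embryonic stem cells of the mouse (mESCs), gated as SSEA1+ and EPCAM+ cells lacking THY1. All cells were of C57/Bl6 background, and the labels give no genotype, treatment or age. There were 3 libraries of each cell type (numbers 1, 2 and 4 for MEFs and 1, 3 and 5 for mESCs), each read on a BGI DNBSEQ-G400 and an Illumina HiSeqX10 instrument, which made 12 samples in 4 groups. The study described the libraries of a cell type as biological replicates without saying how the cultures were related. The p-values therefore weigh differences against the variation among these libraries, and do not extend beyond them.

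GATA factors are zinc finger proteins that bind short DNA sequences centred on the letters GATA. Gata1, Gata2 and Gata3 are known from blood: Gata1 drives red cell and platelet development, Gata2 maintains blood stem cells, and Gata3 directs T cells. Gata4, Gata5 and Gata6 are known from heart and endoderm, and Gata4 and Gata6 mark the primitive endoderm, the lineage that separates from the pluripotent cells of the early embryo. Gata2 and Gata3 also act in the trophoblast.

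The sequences below are the central 300 bases of 5 member peaks outside exons, chosen because the comparison of cell types or the search for GATA letters turned on them. They were read from the GRCm38 reference of RefSeq, plus strand, 5′ to 3′. Capitals mark matches to the motifs that were searched on both strands of each peak. The motif of AP-1, a factor of growth and stress responses, was searched as TGACTCA and reads as TGAGTCA when it lies on the minus strand. For GATA factors the searched words were AGATAA and, as a further form, TGATAA, and a minus strand match to the latter is seen as TTATCA. For TEAD factors the letters GGAATG were searched in the same way.
Gata2 intron 4, chr6:88203362-88203661, more open in MEFs: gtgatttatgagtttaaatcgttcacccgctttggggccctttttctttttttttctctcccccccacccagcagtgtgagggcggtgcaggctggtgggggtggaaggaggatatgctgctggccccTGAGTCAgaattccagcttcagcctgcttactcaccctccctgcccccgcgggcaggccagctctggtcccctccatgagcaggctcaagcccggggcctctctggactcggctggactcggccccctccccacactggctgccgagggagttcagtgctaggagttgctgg
Gata3 far upstream, chr2:9903888-9904187, more open in mESCs: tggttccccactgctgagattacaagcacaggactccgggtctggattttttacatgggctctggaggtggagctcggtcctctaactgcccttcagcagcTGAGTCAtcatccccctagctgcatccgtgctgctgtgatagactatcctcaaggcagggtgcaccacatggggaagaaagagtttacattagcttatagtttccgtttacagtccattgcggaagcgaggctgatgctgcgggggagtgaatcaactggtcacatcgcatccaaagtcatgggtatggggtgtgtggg
Gata3 downstream of the gene, chr2:9855976-9856275, more open in mESCs, with a TEAD match: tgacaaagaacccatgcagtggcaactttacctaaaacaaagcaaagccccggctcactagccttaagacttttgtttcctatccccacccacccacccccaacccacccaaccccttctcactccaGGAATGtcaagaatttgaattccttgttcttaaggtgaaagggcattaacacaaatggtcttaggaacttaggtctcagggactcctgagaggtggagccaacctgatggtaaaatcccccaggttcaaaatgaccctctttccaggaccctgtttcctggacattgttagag
Gata4 upstream, chr14:63255933-63256232, open in both and more so in mESCs, with a GATA match: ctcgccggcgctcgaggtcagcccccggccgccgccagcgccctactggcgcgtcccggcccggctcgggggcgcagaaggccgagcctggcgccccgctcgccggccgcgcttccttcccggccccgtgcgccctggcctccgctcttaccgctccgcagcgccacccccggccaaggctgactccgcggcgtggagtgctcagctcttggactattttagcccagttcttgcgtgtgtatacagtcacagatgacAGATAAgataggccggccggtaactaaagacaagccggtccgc
Gata5 downstream of the gene, chr2:180320277-180320576, more open in mESCs, with a GATA match: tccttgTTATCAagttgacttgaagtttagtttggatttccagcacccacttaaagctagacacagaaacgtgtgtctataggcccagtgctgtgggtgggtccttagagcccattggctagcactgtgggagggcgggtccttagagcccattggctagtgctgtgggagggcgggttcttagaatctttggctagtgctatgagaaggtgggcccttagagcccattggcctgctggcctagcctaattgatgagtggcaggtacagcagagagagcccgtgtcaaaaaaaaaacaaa

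Between 20085886 and 21662775 reads per MEF sample and between 15860985 and 16958488 per mESC sample fell in the peaks of the platform's own set. Levels are given as CPM, the reads in a peak scaled to a common total of reads in all peaks of each sample. The labelled cell types were checked at promoter peaks within 1 kb of a transcription start site (TSS): on BGI all 6 mESC markers (Pou5f1, Sox2, Nanog, Esrrb, Epcam, Zfp42) were more open in mESCs and all 6 MEF markers (Thy1, Col1a1, Col1a2, Col3a1, Twist1, Prrx1) in MEFs, though Thy1 and Epcam were also used in the sort. Among primitive endoderm markers on BGI, 3 of 5 were more open in mESCs and 1 in MEFs, with a summed level of 72.8 to 79.9 CPM in MEFs and 66.3 to 69.4 CPM in mESCs. The 4 trophectoderm markers with a promoter peak summed to 34.5 to 36.4 CPM in MEFs and 66.2 to 76.7 CPM in mESCs, and Cdx2 had no peak. Of 5 blood and 5 endothelial markers, 2 each had a promoter peak, and Ptprc, Spi1 and Klf1 for blood and Cdh5, Tie1 and Emcn for endothelium had none. Of the blood markers with a peak, Csf1r, the receptor of a macrophage growth factor, was more open in MEFs on both platforms (15.9 CPM in MEFs and 2.13 CPM in mESCs on average on BGI, a log2 change of -2.97) and Tal1 more open in mESCs on both (0.65 on BGI), while Pecam1 and Kdr for endothelium were not called. Tal1 was read at a different peak on each platform. The part of other cells in the values below was not tested.

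The comparison of mESCs with MEFs asked which of these elements differ in accessibility between the cell types. On BGI, 17 of the 32 member peaks were more open in mESCs and 7 in MEFs at an adjusted p under 0.05 (edgeR's quasi-likelihood test, adjusted by Benjamini-Hochberg over all peaks). This was 75.0% of the members, beside a background of 84.1% of all peaks, with 40.9% up and 43.2% down in mESCs. For Illumina, 16 of 36 were higher and 7 lower, 63.9% beside a background of 84.5%, made of 42.1% up and 42.4% down. Member peaks were thus called no more often than other peaks. Their median change in size was 0.81 on the log2 scale on BGI and 0.63 on Illumina, against 1.74 and 1.67 over all peaks. The libraries of the cell types did not overlap in 24 of 32 member peaks on BGI (85.1% of all peaks) and in 24 of 36 on Illumina (85.6%). When libraries were scaled to the fixed read numbers of the study's down-sampling, the median change of all peaks moved by 0.14 on BGI and 0.13 on Illumina, and the members were split 17 higher to 4 lower and 18 to 4, beside 82.3% and 82.8% of all peaks called. In these bulk samples an element open in fewer cells cannot be told apart from one less open in each cell.

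**Figure D1:**
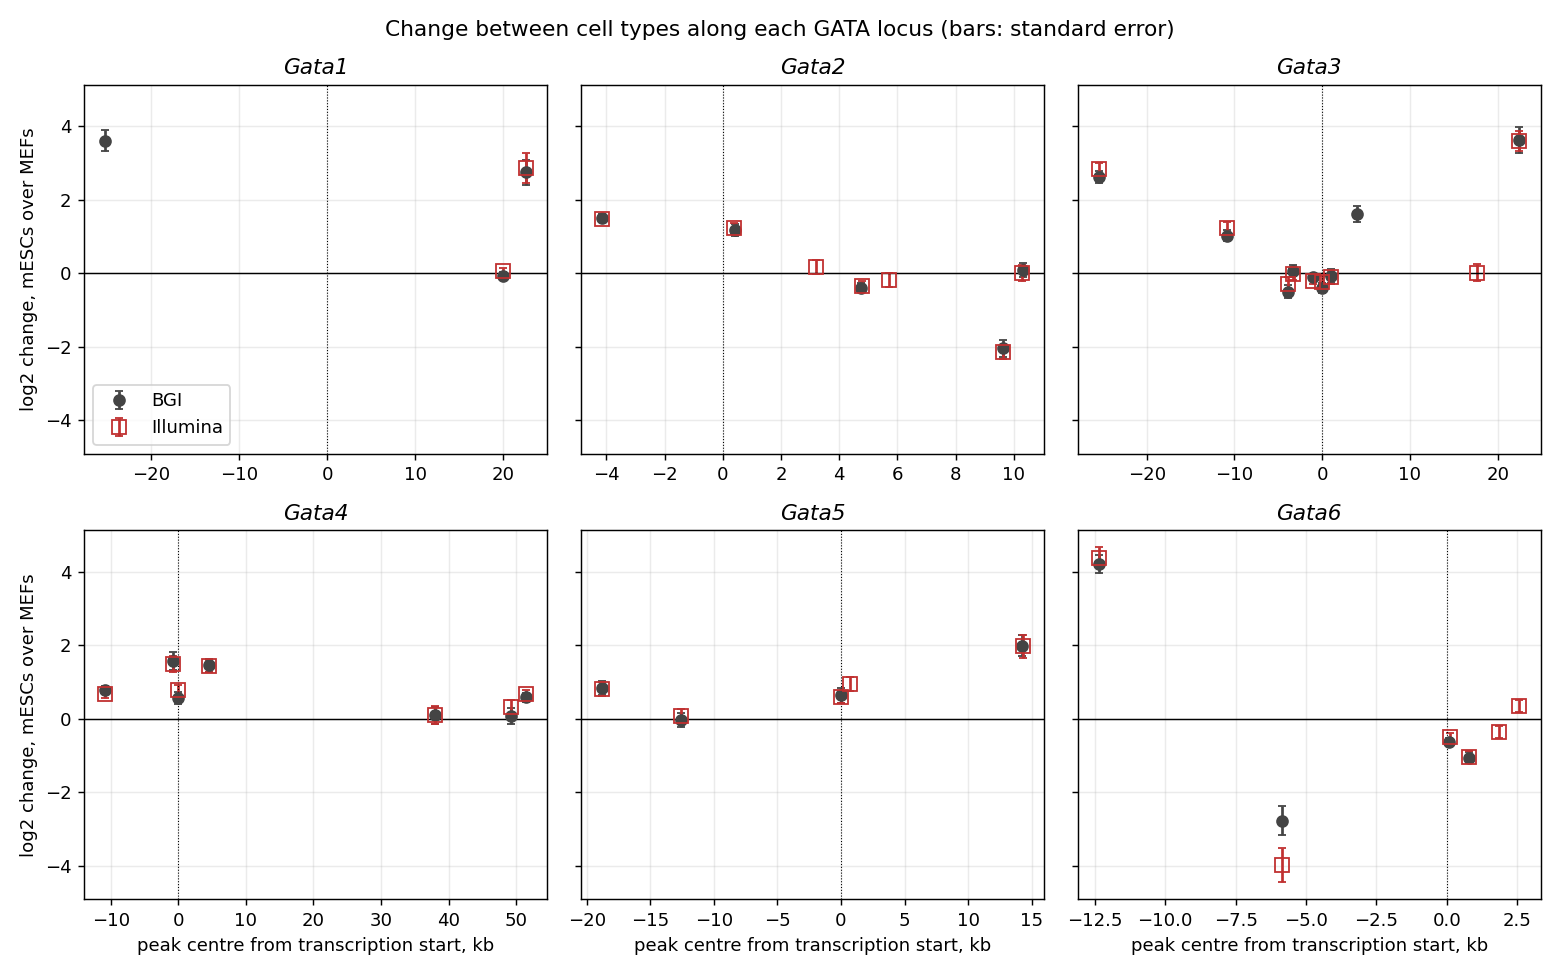
Change in accessibility between mESCs and MEFs (log2, y axis) of each member peak against the distance of its centre from the first coding transcript's TSS (kb, x axis; negative is upstream), 1 panel per gene; filled circles are BGI, open squares Illumina, bars the standard error. At Gata4 and Gata5 no called peak lies below 0, while Gata6 spans -2.78 to 4.21 on BGI.

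At Gata1 no peak of either peak set lay in the gene body on chromosome X. The intervals called by the authors in each sample numbered 0 within the body in every MEF sample, 1 in every mESC sample on BGI and between 0 and 2 on Illumina, with a -log10 p of at most 13.8 and a fold enrichment over background of at most 6.54. The member peaks lay in the extended window. That at the promoter of Hdac6, a deacetylase gene 16016 bp from the nearest Gata1 start, was among the most open of all members and overlapped between the cell types, with 54.0, 51.3 and 45.9 CPM in MEFs and 44.3, 59.9 and 45.7 CPM in mESCs on BGI (log2 change -0.08 ± 0.12 SE, adjusted p = 0.540, edgeR).

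Inside the Hdac6 body, 22.5 kb downstream of the Gata1 TSS (chrX:7945129-7945630), a weak peak had 0.554, 0.646 and 0.697 CPM in MEFs and 4.35, 3.78 and 5.28 CPM in mESCs. A summit called by the authors lay in it in 3 of 3 mESC samples and 0 of 3 MEF samples on BGI. The change was 2.74 ± 0.33 (6.69-fold, edgeR adjusted p = 5.5e-07) and 2.86 ± 0.40 on Illumina. This peak was on the authors' list of reproducible peaks for mESCs alone, and so entered the set through the group where it is high. Its summits and adjusted p are not independent of that choice. Another peak, singled out after its values were seen, lay 14847 bp beyond the 5′ end of Gata1 (chrX:7992918-7993419) with 0.600, 0.596 and 0.846 CPM in MEFs and 6.87, 8.93 and 10.2 CPM in mESCs. It changed by 3.60 ± 0.29. This peak was absent from the Illumina peak set, but the Illumina reads counted over it changed by 3.03 with an edgeR adjusted p of 2.19e-08. It too was on the mESC list alone on BGI.

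Gata2, on the plus strand of chromosome 6, changed in opposite directions along its length. It is read from an upstream start and from another further in. The peak 4.1 kb before the upstream start (chr6:88189506-88190007) had 11.2, 12.4 and 11.7 CPM in MEFs and 34.4, 36.0 and 34.9 CPM in mESCs. Every mESC library was far above every MEF library, and the change was 1.51 ± 0.11 (2.84-fold, edgeR adjusted p = 6.01e-10). It lies 674 bp from a TSS of Gm38708, and so counts as a promoter peak of that gene.

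The peak in intron 1 just inside the upstream start (chr6:88194052-88194553) rose from 5.91, 5.02 and 5.87 CPM in MEFs to 13.4, 13.7 and 12.7 CPM in mESCs (1.17 ± 0.16, 2.25-fold). At the downstream start, 4.8 kb in (chr6:88198404-88198905), the order was the other way round, with 18.9, 20.3 and 18.1 CPM in MEFs and 14.7, 15.8 and 14.9 CPM in mESCs. The libraries did not overlap, but the change was small (-0.40 ± 0.12, edgeR adjusted p = 0.00524), as on Illumina (-0.35, edgeR adjusted p = 0.0139). With the fixed read numbers it missed the threshold on both platforms (edgeR adjusted p = 0.0719 on BGI and 0.119 on Illumina), and on Illumina also without MEF library 2 (0.0539) or mESC library 1 (0.0920).

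The peak in intron 4 of Gata2, printed above in part (chr6:88203261-88203762), was the element of this locus with the largest excess in MEFs on both platforms. It lies 683 bp from the start of a short annotated Gata2 transcript. It had 15.97, 14.4 and 9.36 CPM in MEFs and 3.78, 2.90 and 3.42 CPM in mESCs. All MEF libraries were above all mESC libraries, and MEF library 4 was the lowest MEF library on both platforms. The change was -2.05 ± 0.22 (4.14-fold, edgeR adjusted p = 1.25e-07) on BGI and -2.15 ± 0.19 on Illumina, and without MEF library 4 it was -2.26 and -2.32. Within the same intron, the next peak 10.3 kb from the upstream start differed by 0.08 ± 0.20 (adjusted p = 0.697, edgeR), with 6.16 to 6.79 CPM in MEFs and 5.62 to 8.39 CPM in mESCs. Illumina peaks at 3.2 and 5.7 kb, with no BGI counterpart, were not called.

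Gata3, on the minus strand of chromosome 2, had 9 peaks on each platform, and those within 1.1 kb of its first coding transcript's TSS were open in both cell types and differed little. The most open of them, 1.1 kb upstream of the TSS (chr2:9879428-9879929), had 54.9, 57.4 and 51.3 CPM in MEFs and 49.7, 53.7 and 54.9 CPM in mESCs. The groups overlapped (-0.11 ± 0.09, adjusted p = 0.229, edgeR). On Illumina the groups overlapped too, yet the peak passed the test as lower in mESCs (-0.21 ± 0.08, edgeR adjusted p = 0.0203). With the fixed read numbers the BGI value turned to 0.03 (adjusted p = 0.810, edgeR) and the Illumina value was -0.09 (adjusted p = 0.388), and the Illumina call was also lost without MEF library 2 (edgeR adjusted p = 0.0539) or mESC library 1 (0.0876). At the TSS itself, on BGI, 15.8, 16.6 and 13.8 CPM in MEFs stood above 12.7, 12.3 and 11.6 CPM in mESCs (-0.41 ± 0.14, edgeR adjusted p = 0.0113), and on Illumina the peak missed the threshold (-0.24 ± 0.16, adjusted p = 0.178). At the fixed read numbers this peak missed the threshold on BGI as well.

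The largest changes at Gata3 on BGI were in peaks 13753 and 17296 bp from the nearest annotated Gata3 start. The peak 25.4 kb upstream (chr2:9903787-9904288) had 3.37, 3.93 and 3.34 CPM in MEFs and 25.3, 19.6 and 23.6 CPM in mESCs. No library came near the other group, and the change was 2.62 ± 0.16 (6.13-fold, edgeR adjusted p = 8.84e-11) on BGI and 2.84 ± 0.17 on Illumina. The peak 22.5 kb downstream of the TSS, beyond the 3′ end of the gene (chr2:9855875-9856376), had 0.369, 0.348 and 0.896 CPM in MEFs and 6.81, 8.04 and 6.09 CPM in mESCs. A summit called by the authors lay in it in 3 of 3 mESC samples and in 0 of 3 MEF samples on BGI, and the change was 3.63 ± 0.35 (12.4-fold). Both peaks were on the mESC list alone, and so entered the set through the group where they are high. Their summits and tests are not independent of that choice.

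Between these, the peak 10.8 kb upstream (chr2:9889189-9889690), at a TSS of the gene 9230102O04Rik and 312 bp from another annotated Gata3 start, went from 6.37, 6.66 and 6.52 CPM in MEFs to 13.8, 12.8 and 14.8 CPM in mESCs (1.02 ± 0.15). Over coding exon 3, 3.9 kb downstream of the TSS and 460 bp from a further Gata3 start, a peak of the BGI set alone, also singled out after its values were seen, changed by 1.61 ± 0.23 (2.42 CPM in MEFs and 7.76 CPM in mESCs on average) and by 1.29 in the Illumina reads. A peak of the Illumina set alone, 17.7 kb downstream of the TSS, was not called and its groups overlapped, with 3.99 to 4.99 CPM in MEFs and 3.95 to 5.44 CPM in mESCs (0.01, adjusted p = 0.952, edgeR). A peak 3.9 kb upstream, at the TSS of 4930412O13Rik, passed the test as lower in mESCs on BGI (-0.51, edgeR adjusted p = 0.0147) but not on Illumina (-0.31, adjusted p = 0.154), and lost its BGI call with the fixed read numbers. In all, 4 Gata3 peaks on BGI were higher in mESCs, 2 lower and 3 not called, and on Illumina 3, 1 and 5.

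At Gata4, on the minus strand of chromosome 14, every called peak was more open in mESCs on both platforms, 5 of 7 on each. The promoter peak (chr14:63245083-63245584), which covers part of exon 1, had 9.79, 8.35 and 9.71 CPM in MEFs and 14.4, 16.4 and 12.4 CPM in mESCs. The groups did not overlap (0.57 ± 0.16, 1.48-fold, edgeR adjusted p = 0.00279; Illumina 0.79 ± 0.14). A peak 0.8 kb upstream of the TSS (chr14:63245786-63246287) rose from 1.89, 2.58 and 2.89 CPM to 6.998, 6.98 and 8.88 CPM (1.57 ± 0.23), and one 4.5 kb downstream (chr14:63240505-63241006), mostly over coding exon 2, from 4.25, 4.13 and 3.68 CPM to 11.98, 11.4 and 11.2 CPM (1.45 ± 0.18).

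The peak 10.8 kb upstream of the Gata4 TSS (chr14:63255832-63256333) lies in an intron of a longer annotated transcript and holds a GATA match. It was the most open of the Gata4 peaks within the gene body on BGI, with 14.3, 12.4 and 13.2 CPM in MEFs and 24.2, 23.8 and 23.6 CPM in mESCs (0.78 ± 0.12, 1.71-fold, edgeR adjusted p = 7.57e-06). The last called peak, 51.4 kb downstream, is the promoter of Neil2, a DNA repair gene (0.58 on BGI). Those at 38.0 and 49.3 kb downstream were not called on either platform and had 3.74 to 7.32 CPM in MEFs and 4.78 to 9.33 CPM in mESCs on BGI.

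Gata5, on the minus strand of chromosome 2, had the lowest sum of reads of the 6 loci on both platforms, and again no called peak was more open in MEFs. Its promoter peak (chr2:180334454-180334955) had 4.02, 6.66 and 6.17 CPM in MEFs and 10.5, 7.63 and 9.32 CPM in mESCs. The groups stood apart by less than the range within either (0.64 ± 0.21, 1.55-fold, edgeR adjusted p = 0.00958; Illumina 0.60 ± 0.16), and without mESC library 1 the BGI change was 0.53 with an adjusted p of 0.0564 (edgeR). The gene Gata5os overlaps this peak.

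The Gata5 peak 14.3 kb downstream of the TSS, printed above in part (chr2:180320176-180320677), rose from 1.62, 1.74 and 1.15 CPM in MEFs to 5.04, 6.86 and 6.90 CPM in mESCs (1.99 ± 0.28, 3.97-fold, edgeR adjusted p = 3e-06). That 18.8 kb upstream (chr2:180353213-180353714) rose from 4.75, 3.98 and 5.03 CPM to 9.02, 7.81 and 9.01 CPM (0.84 ± 0.19). The one 12.6 kb upstream had 9.24 to 10.5 CPM in MEFs and 7.38 to 11.99 CPM in mESCs, and differed by -0.04 ± 0.18 (adjusted p = 0.852, edgeR). An Illumina peak 0.7 kb into the gene, with no BGI counterpart, was higher in mESCs (0.94 ± 0.19).

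Gata6, on the plus strand of chromosome 18, held both the largest rise and the largest fall among the members on both platforms, both of them upstream of the gene. The peak 12.4 kb upstream of the TSS (chr18:11039867-11040368) had 0.646, 0.845 and 0.597 CPM in MEFs and 15.95, 13.3 and 11.4 CPM in mESCs. A summit called by the authors lay in it in 3 of 3 mESC samples and 0 of 3 MEF samples on BGI. The change was 4.21 ± 0.25 (18.5-fold, edgeR adjusted p = 6.2e-11) on BGI and 4.38 ± 0.29 on Illumina. This peak was on the mESC list alone, and so entered the set through the group where it is high. Its summits, adjusted p and rank are not independent of that choice.

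The peak 5.8 kb upstream (chr18:11046376-11046877) had 7.43, 7.06 and 2.89 CPM in MEFs and 1.26, 0.650 and 0.745 CPM in mESCs. Here a called summit lay in it in 3 of 3 MEF samples and 0 of 3 mESC samples. It was on the MEF list alone, and so entered the set through the group where it is high. Its summits, adjusted p and rank are not independent of that choice. MEF library 4 stood well below the other MEF libraries, and did so on Illumina too (6.25, 5.86 and 2.22 CPM in MEFs against 0.313, 0.354 and 0.248 CPM in mESCs). The change was -2.78 ± 0.40 (6.87-fold, edgeR adjusted p = 3.99e-06) on BGI and -3.99 ± 0.47 on Illumina, and -3.11 and -4.37 without MEF library 4. The peak lies 760 bp from a TSS of the gene 1010001N08Rik, whose body covers both upstream peaks.

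The Gata6 promoter was more open in MEFs. The peak over the TSS (chr18:11052297-11052798) had 32.04, 33.8 and 39.7 CPM in MEFs and 25.8, 24.1 and 20.8 CPM in mESCs (-0.64 ± 0.11, 1.56-fold, edgeR adjusted p = 3.67e-05; Illumina -0.49 ± 0.11). Its neighbour 0.8 kb downstream, in intron 1 (chr18:11053000-11053501), had 14.9, 14.7 and 16.3 CPM in MEFs and 8.45, 7.45 and 7.02 CPM in mESCs (-1.06 ± 0.15; Illumina -1.05 ± 0.16). In both peaks every MEF library was above every mESC library. On BGI they lie 0 and 433 bp from a TSS of 1010001N08Rik, and so count as promoter peaks of that gene too. Of the Illumina peaks with no BGI counterpart, both in coding exon 2, that at 1.9 kb passed narrowly as lower in mESCs (-0.37, edgeR adjusted p = 0.0465) and that at 2.6 kb did not pass (0.34, adjusted p = 0.0572). The call at 1.9 kb was lost with the fixed read numbers.

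**Figure D2:**
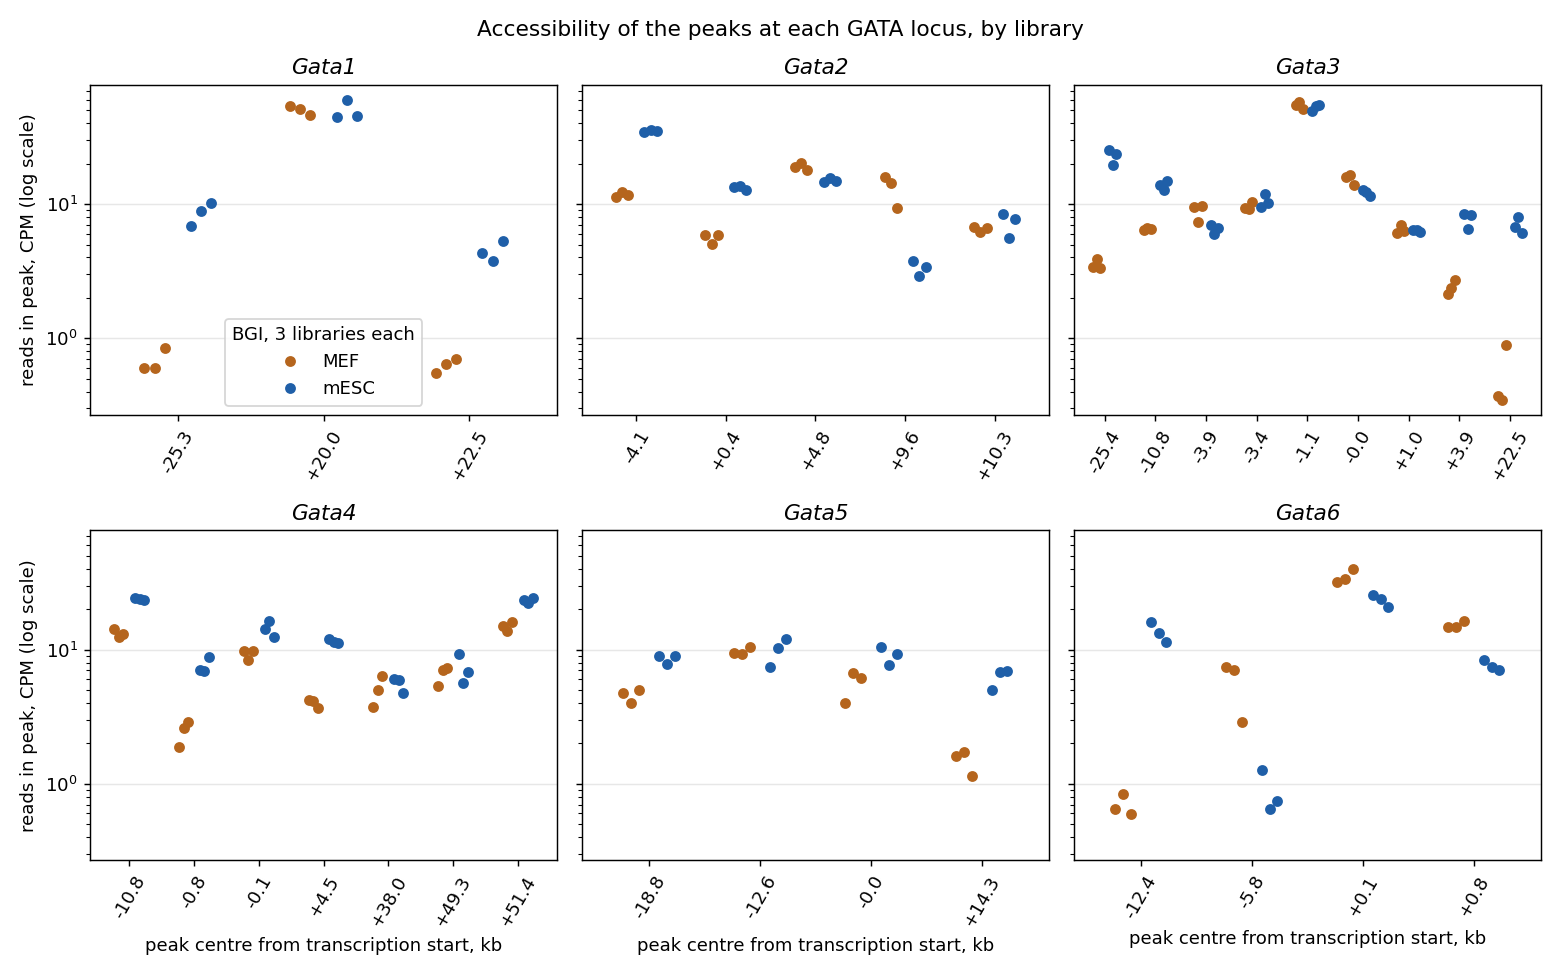
Reads in each member peak of the BGI peak set (CPM, log scale, y axis) in the 3 MEF and 3 mESC libraries, 1 point per library, with peaks ordered by the distance of their centre from the TSS (kb, x axis). The Gata6 peaks 12.4 and 5.8 kb upstream separate the cell types in opposite directions, while the Gata3 peak 1.1 kb upstream and the Hdac6 promoter near Gata1 overlap.

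Summed over its peaks, each locus separated the cell types on both platforms without overlap of libraries. On BGI the means were 55.5 ± 3.16 CPM in MEFs and 93.5 ± 2.54 CPM in mESCs for Gata4 (SD, n = 3), 107.9 ± 2.94 and 139.8 ± 2.39 for Gata3, 56.2 ± 3.96 and 74.0 ± 0.498 for Gata2, 21.4 ± 1.51 and 33.9 ± 2.88 for Gata5, and 51.7 ± 3.90 and 63.1 ± 8.69 for Gata1. Gata6 went the other way, with 56.9 ± 2.29 CPM in MEFs and 45.6 ± 5.72 CPM in mESCs. The two-sided exact permutation test gave p = 0.1 for each of the 6 loci on each platform, also after Benjamini-Hochberg adjustment over the 12 tests, which is the smallest 3 against 3 libraries can give. At Gata1 on BGI the highest MEF library, at 55.1 CPM, lay just under the lowest mESC library, at 55.5 CPM. With TMM factors the Gata1 libraries overlapped on both platforms (exact permutation p = 0.2), as they did at Gata1 on BGI and at Gata6 on Illumina with the fixed read numbers. Without mESC library 3 the Gata1 difference fell from 11.4 to 6.70 CPM on BGI and from 6.10 to 3.50 CPM on Illumina. For Gata2 and Gata6 the direction depended on peaks shared with other genes: without those within 1 kb of another gene's TSS, which at Gata6 are 3 of its 4 BGI peaks and leave that 12.4 kb upstream alone, the difference in summed CPM between mESCs and MEFs turned from 17.8 to -5.48 at Gata2 and from -11.3 to 12.9 at Gata6 on BGI. The Gata2 libraries then overlapped (exact permutation p = 0.2 on BGI and 0.3 on Illumina).

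**Figure D3:**
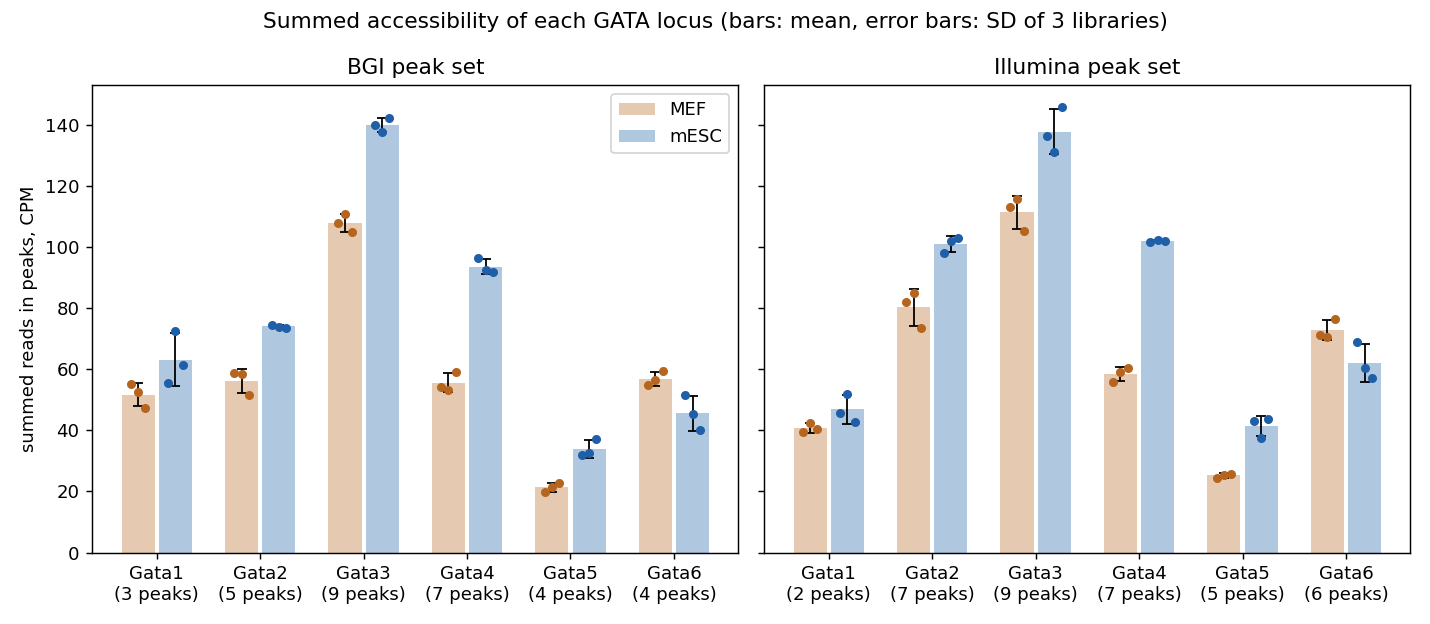
Summed reads in the peaks of each locus (CPM, y axis) by cell type, with BGI at the left and Illumina at the right; bars are means, error bars the SD and points the 3 libraries. For all loci but Gata6 the mESC points lie above the MEF points.

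Per kb of window, Gata3 was the most accessible locus on BGI in both cell types, with 1.48 CPM per kb in MEFs and 1.92 CPM per kb in mESCs. In MEFs it was followed by Gata2 at 1.06 CPM per kb, Gata1 at 0.879, Gata6 at 0.774, Gata4 at 0.493 and Gata5 at 0.432, with only the libraries of Gata1 and Gata6 overlapping among neighbours in this order. In mESCs the order was Gata2 at 1.39 CPM per kb, Gata1 at 1.07, Gata4 at 0.830, Gata5 at 0.684 and Gata6 at 0.620, with overlap between Gata5 and Gata6. The Hdac6 promoter made up 50.4 of the 51.7 CPM at Gata1 in MEFs and 49.98 of the 63.1 CPM in mESCs. On Illumina the order differed in part, and Gata2 and Gata3 overlapped in both cell types.

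Of the 32 BGI member peaks, 16 were on the deposited lists of reproducible peaks for both cell types, 13 on the mESC list alone and 3 on the MEF list alone. The 3 were the Gata2 intron 4 peak, the Gata3 peak 3.9 kb upstream and the Gata6 peak 5.8 kb upstream. The split over all peaks was not counted, so these numbers are not read as a trait of the loci. Peaks on 1 list alone passed the authors' filter only through that cell type, so their calls are not independent of it. Member peaks lay at promoters more often than the peak set as a whole (62.5% against 32.6% within 1 kb of any TSS), and were richer in GC (median 56.9% against 51.0%). At least 1 copy of AGATAA or TGATAA on either strand was found in 6 of 32 member peaks (18.8%) and in 28.7% of all peaks of the same width, and TGACTCA in 5 (15.6%) against 19.9%. GGAATG, the TEAD letters, was found in 8 (25%) against 31.7%, and ATTTGCAT, the octamer bound by POU factors, in none against 3.21%.

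The promoter peaks of the members were set against those of 15125 genes by the distance of their log2 CPM over the 6 BGI samples. The nearest protein-coding genes were Acad10, Brap and Rab27b to Gata2, Hras, Lrrc56 and Cit to Gata3, Cnot2, Actl10 and Ica1l to Gata4, Fbxo39, Ttbk1 and Krt222 to Gata5, and Atp5d, Usp2 and Rgs12 to Gata6. Acad10 and Brap, and likewise Hras and Lrrc56, had equal distances (0.0934 and 0.145). Genes read at the same promoter peak have equal distances, so neither pair counts as separate likenesses.

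Genes that work with or under GATA factors were read at their promoter peaks. Of 10 cofactor and GATA-type zinc finger genes, 3 were higher in mESCs on BGI, 3 lower and 4 not called, with a median change of -0.01 beside -0.13 over all promoter peaks, of which 31.3% were higher and 41.0% lower. Zfpm1 (FOG1, the partner of Gata1) fell by 1.10 on the log2 scale and Zfpm2 (FOG2, the partner of Gata4 in the heart) by 0.76, while Trps1, a GATA-type repressor, rose by 1.36. Gatad2a, of the NuRD complex, fell by 0.43. All 4 passed on Illumina in the same direction (edgeR adjusted p).

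Among 14 blood genes, 4 were higher in mESCs, 3 lower, 2 not called and 5 without a promoter peak on BGI (median 0.27). Kit, the stem cell factor receptor, rose by 1.15 and Gfi1b, a transcriptional repressor needed for red cell and platelet development, by 1.44. Gfi1b was read at a different peak on each platform. Itga2b, the platelet integrin, fell from 47.9 to 25.1 CPM on average, and Cebpa, a myeloid factor, by 0.74 on the log2 scale. Klf1, a red cell factor, and Spi1, a myeloid factor, were among the genes without a promoter peak.

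Of 14 primitive endoderm genes, 6 were higher, 1 lower, 5 not called and 2 without a peak (median 0.21), with Col4a1 and Col4a2 read at the same peak and both counted as not called. Sox17 rose by 2.50, from 3.14 to 18.6 CPM on average, and Foxa2 by 2.07. Lamb1, a basement membrane laminin, rose by 0.86, and Dab2, an endocytic adaptor, fell by 1.84. Of 12 heart genes, 4 were higher, 3 lower, 3 not called and 2 without a peak (median 0.28). Myh6, a cardiac myosin, rose by 3.49 from 0.739 CPM, Nkx2-5 by 1.34 and Tbx20 by 0.94, while Mef2c fell by 1.40. Of 8 T cell genes only 3 had a promoter peak, of which Tcf7 was higher and Bcl11b and Zbtb7b lower, and Bcl11b alone passed on both platforms (-0.92 on BGI). On Illumina the counts higher and lower were 2 and 3 for cofactors, 2 and 4 for blood, 5 and 2 for primitive endoderm, 5 and 3 for heart and 0 and 1 for T cells, among 10, 9, 11, 9 and 3 genes with a promoter peak, beside 31.6% higher and 42.4% lower over all promoter peaks.

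Whether the sequencer changed the values was tested within each cell type on the peaks of both platforms. In MEFs 1 of 27 member peaks differed (4.06% of all peaks). This was the Hdac6 promoter near Gata1, with 55.2, 52.7 and 47.2 CPM on BGI and 39.0, 42.2 and 39.4 CPM on Illumina (0.34 ± 0.08, edgeR adjusted p = 0.0430). Without library 1 or 2 edgeR called 0 members in MEFs, and without library 4 it called 4, beside 0% and 9.91% of all peaks. In mESCs edgeR called 0 of 33 (3.23% of all peaks), with 7 at an unadjusted p under 0.05, and DESeq2 called none of the 17 to which it gave an adjusted p. The same libraries were read on both instruments, so the samples are paired. With library number as a replicate block 10 of 27 member peaks differed in MEFs (29.2% of all peaks), 2 higher and 8 lower on BGI, and 10 of 33 in mESCs (21.3% of all peaks), again 2 higher and 8 lower. With the same block DESeq2 gave an adjusted p to 14 members in MEFs and 17 in mESCs, and called 3 and 0 of them, beside 14.6% and 9.25% of all peaks with an adjusted p.

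Of the 8 members lower on BGI in each cell type, 7 in MEFs and all 8 in mESCs were over 60% GC. In the paired fit, among members over 60% GC, 7 of 13 were lower on BGI in MEFs and 8 of 15 in mESCs, beside 59.4% and 57.6% of all peaks over 60% GC. Their median difference was -0.31 in MEFs and -0.24 in mESCs, against -0.23 in both for all such peaks. The Gata6 exon 2 peak 1.9 kb downstream, the richest in GC at 73.1%, had 5.71, 6.63 and 4.69 CPM on BGI and 9.02, 8.40 and 8.96 CPM on Illumina in MEFs (-0.65 ± 0.12). The Gata2 peak at the downstream start was lower on BGI in 3 of 3 libraries of each cell type, at -0.31 in MEFs and -0.39 in mESCs on the log2 scale. After a correction for GC content in the same paired fit, 3 of 27 and 3 of 33 members passed, beside 12.7% and 8.64% of all peaks. The Gata6 exon 2 peak then stood at -0.21 in MEFs (adjusted p = 0.254, edgeR) and the Gata2 peak at 0.09 in MEFs (adjusted p = 0.436) and 0.01 in mESCs (adjusted p = 0.966), and none of these 3 values passed. Those that passed were the Hdac6 promoter in both cell types (0.47 in MEFs and 0.35 in mESCs, against 0.34 and 0.20 before the correction), in MEFs the Gata6 promoter (0.25 against 0.06) and its neighbour in intron 1 (-0.23 against -0.22), and in mESCs the Gata3 peaks 3.9 kb downstream (0.49 against 0.30) and 1.1 kb upstream (0.20 against 0.13).

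**Figure D4:**
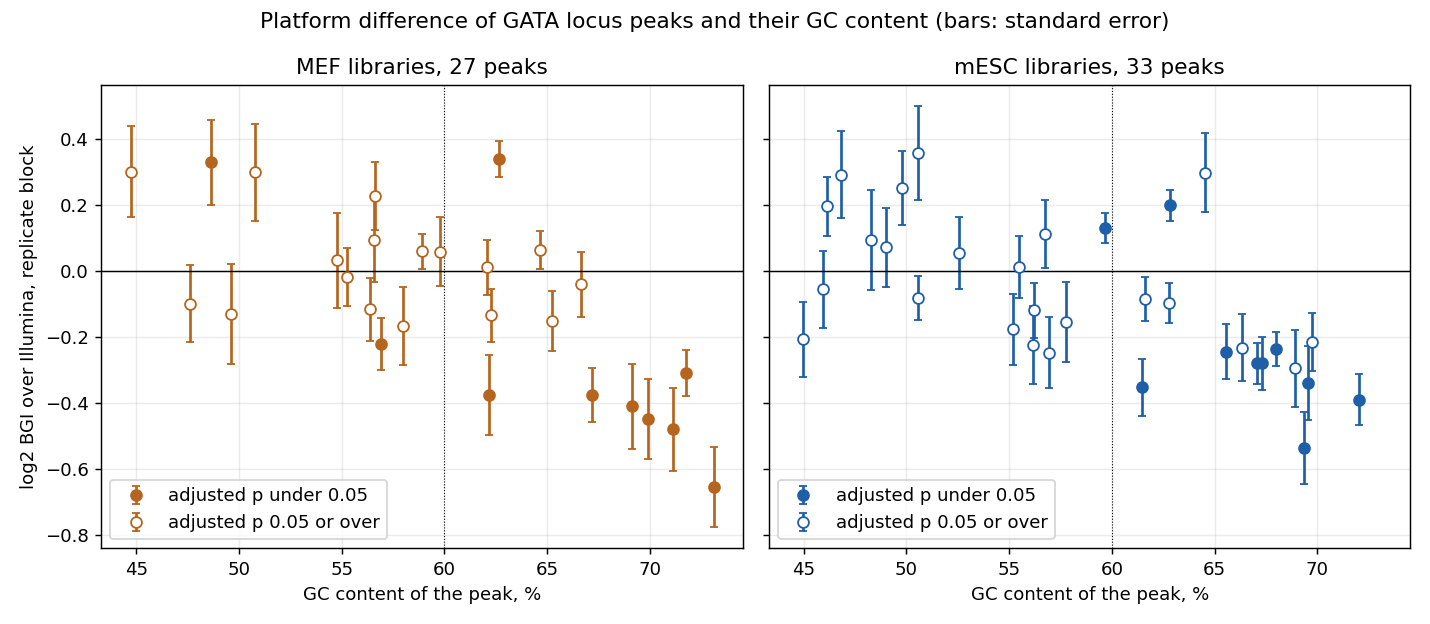
Log2 ratio of BGI to Illumina with library as a replicate block (y axis) against the GC content of the peak (%, x axis) for member peaks in MEFs (left) and mESCs (right); bars are standard errors, filled points passed an adjusted p of 0.05 and the dotted line marks 60% GC. Right of the line 10 of 13 points in MEFs and 13 of 15 in mESCs lie below 0, beside 87.2% and 89.7% of all peaks over 60% GC, and the Hdac6 promoter lies above it in both.

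The difference between mESCs and MEFs was tested for dependence on the platform over all 12 samples. With edgeR 0 of 32 member peaks passed (0% of all peaks) and none had an unadjusted p under 0.05. With the replicate block 0 of 32 passed (0.386% of all peaks) and 4 had an unadjusted p under 0.05, among them the Gata6 peak 5.8 kb upstream, where the fall was smaller on BGI, the difference between platforms being 1.33 ± 0.45 (adjusted p = 0.154, edgeR), and the Gata3 peak 1.1 kb upstream (0.22 ± 0.06, adjusted p = 0.0839).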

How the data were processed

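Omni-ATAC-seq libraries, 3 of MEFs and 3 of mESCs, each read on BGI and Illumina, were analysed from the deposited files. Per the labels and methods, the authors cut Illumina reads from 150 to 100 bp, aligned to GRCm38/mm10, discarded duplicate and mitochondrial reads, and down-sampled every sample of a cell type to the same read number. The deposited counts are raw reads per peak. Peaks came from MACS2 calls per sample (p 0.01), whose deposited files give a -log10 p and a fold enrichment (ratio) over background; the authors widened summits by 250 bp and kept peaks with a normalised score of at least 3 in at least 2 samples.

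Members are peaks sharing a base with Gata1 to Gata6 bodies (GENCODE M21) extended by 20 kb. Members and gene lists were chosen with earlier results of these data known. Count columns without a platform name were taken as Illumina: over 67828 to 71753 peaks per library the log ratio of the BGI column to that column followed the log ratio of the fold enrichments in the BGI and Illumina calls with a Spearman rho of 0.756 to 0.799. No per-sample column was left out, and 0 pairs of samples had identical counts. edgeR 4.0.16 (R 4.3.3; TMM factors 0.964 to 1.04, filterByExpr, quasi-likelihood F test, Benjamini-Hochberg over all peaks, threshold 0.05) was fitted on each whole table and tested on simulated data. Errors of log2 changes are standard errors. CPM are scaled to the reads in peaks, so they depend on how many reads fall outside peaks. Locus sums were compared by an exact permutation test.

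Alternatives were DESeq2 1.42.0, RLE factors, fixed read numbers, other filters, windows and promoter widths, leaving out each library, and library number as a replicate block. The numbers pair the platforms because the same library was read on both: deviations from group means correlated at 0.618 to 0.837 within MEF pairs and 0.515 to 0.724 within mESC pairs, and at -0.676 to 0.293 and -0.510 to -0.115 between other libraries.

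Peaks were named by rule: the promoter peak with the most reads, and up to 3 per direction with the lowest adjusted p that passed the same way on both platforms. From lists, up to 4 genes passing on both platforms were named. Other peaks were named after their values were seen. Sequences came from the RefSeq GRCm38.p6 genome; 4 of the 6 genes were matched in the promoter table, without Gata4 and Gata6. Python 3.11.15, pandas 2.3.3, SciPy 1.17.1, pysam 0.24.0 and matplotlib 3.10.9 were used.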

Additional observations from a re-analysis of the deposited data

How the results depend on the processing

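Between mESCs and MEFs, DESeq2 called 24 members on each platform against 24 (BGI) and 23 (Illumina) with edgeR, beside 84.7% and 85.5% of all peaks with DESeq2, and leaving out 1 library gave 22 to 24 members (81.1% to 83.6% of all peaks) and 20 to 25 (81.7% to 84.1%). A log2 change of at least 1 left 15 and 13 members, beside 63% and 61.8% of all peaks. Gene bodies with no extension gave 14 called of 19 and 14 of 24, and bodies extended by 50 kb gave 46 of 55 and 46 of 61, beside 84.1% and 84.5% of all peaks. The summed CPM difference without peaks at promoters of other genes turned to -5.48 at Gata2 and 12.9 at Gata6 on BGI, and to -5.34 and 11.6 on Illumina, where that choice leaves 1 of the 4 Gata6 peaks on BGI and 3 of 6 on Illumina. With fixed read numbers the Gata3 peak 1.1 kb upstream turned to 0.0281 on BGI. With promoters of 2 kb, 2 T cell genes were called on Illumina in place of 1. Of the values of the peaks named by rule under these alternatives, 468 kept their direction and side of the threshold, 8 lost significance, 1 gained it and 1 reversed.

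For BGI against Illumina the replicate block, which pairs the reads of each library, raised the calls from 1 to 10 in MEFs and from 0 to 10 in mESCs, and with a GC offset in the same fit to 3 and 3. DESeq2 called 4 of 16 members with an adjusted p in MEFs (12.8% of all peaks) and 0 of 17 in mESCs (5.75%), and 3 of 14 and 0 of 17 with the block (14.6% and 9.25%). Leaving out 1 library gave 0 to 4 calls in MEFs (0 without library 1 or 2, 4 without library 4), 6 to 10 with the block (17.8% to 24.6% of all peaks), and 6 to 11 with the block in mESCs (13.6% to 16.7%). The block changed no call of the interaction. No paired analysis was possible for the comparison of cell types. Library number 1 occurs in both, but the labels pair no MEF library with an mESC library. With 3 libraries a group, a locus sum cannot reach p under 0.05 in the exact permutation test, and peaks under 1 CPM in a group rest on few reads.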
